A study of Homo sapiens with 4 samples.

Results

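The 37 genes described here encode sensors of double-stranded RNA, the factors that relay their signal, and products that interferon is known to induce. They were chosen by name as a list, and all 37 were found by symbol among the 32955 genes of the deposited table. RNA-seq was performed on 4 libraries from cells labelled MDA-MB-231, an established breast cancer line, grown in DMEM with fetal bovine serum. A control oligonucleotide, mimic NC, had been transfected for 2 libraries, and miR-217 mimic, an artificial duplex that stands in for the microRNA miR-217, for the other 2. Both oligonucleotides came from the same supplier and the methods of the study name a single transfection kit, so every library came from cells that had received a synthetic oligonucleotide, and untransfected cells were not analysed here. The dose of the oligonucleotides and the time of harvest are not given in the sources used here. The comparison of mimic NC with miR-217 mimic asks whether the sequence of the mimic changed these genes, and it cannot show what transfection itself did to them.

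Double-stranded RNA in the cytosol is detected by the helicases RIG-I (DDX58) and MDA5 (IFIH1), which signal through the mitochondrial adaptor MAVS, and in endosomes by TLR3. These pathways activate IRF3 and IRF7, which switch on the interferon beta gene IFNB1, and secreted interferon then acts through STAT2, IRF9 and their partners on many target genes. Some of these targets, the IFIT genes, ISG15 and OASL among them, can also be induced by IRF3 directly, without interferon.

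The depth was 57933183 reads on genes in mimic NC replicate 1 and 47374957 in replicate 2, compared with 53356283 in miR-217 mimic replicate 1 and 32635814 in replicate 2. Levels are given as RPKM, the reads on a gene scaled by its exon length and by the depth of the library, so that levels can be compared between genes. The labels do not say whether the replicates were separate cultures, and p-values measure the spread between these libraries, which may be technical. Libraries that share a replicate number resembled each other more than replicates of a treatment did. The first principal component, with 71.3% of the variance, separated the numbers. What the number marks is not stated in the labels, and differences are therefore given within each number as well. The label of the cells was checked against marker genes. VIM, a mesenchymal filament gene high in this line, was at 27.9 to 36.9 RPKM and CD44 at 13.5 to 26.0 RPKM, while ESR1, which the line lacks, was at 0.0294 to 0.0756 RPKM. Of the other genes described as low or absent in it, GATA3 was at most 0.104 RPKM and CDH1 at most 0.433 RPKM, FOXA1 was at 1.30 to 1.70 RPKM and ERBB3 at 1.49 to 2.77 RPKM. CDKN2A and MTAP, generally described as deleted in MDA-MB-231, were at 10.5 to 13.2 RPKM and at 1.28 to 1.70 RPKM, which goes against the label. The cells are therefore referred to here as the cells labelled MDA-MB-231. Of the leukocyte markers, LYZ had 1.10 and 0.933 RPKM with mimic NC and 1.36 and 3.44 RPKM with miR-217 mimic, PTPRC ranged from 0.351 to 1.25 RPKM and CD3E from 0.193 to 0.733 RPKM. These 3 genes were highest in miR-217 mimic replicate 2, and their part in the values below was not tested.

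The mature sequence that the mimic is named for is shown because its seed largely sets which transcripts it can pair with. The mature form, hsa-miR-217-5p, is encoded on the minus strand at chr2:55983020-55983042 (GRCh38.p14, sequence from RefSeq), and the capitals mark its seed, bases 2 to 8.
hsa-miR-217-5p: uACUGCAUcaggaacugauugga
The matching site in a transcript reads ATGCAGT, or ATGCAGTA where the base opposite the first base of the microRNA is A. In the longest annotated 3'UTR of each gene (GENCODE 29), 7 of the 37 genes held ATGCAGT, or 18.9%. Among tested genes with such a 3'UTR, 1440 of 9909 held it, or 14.5%. The shares cover unlike sets, since 13 of the 37 genes were too low to be tested. The 7 genes with a site were the antiviral protein genes OAS3, OASL and EIF2AK2, the RNA-binding protein IFIT1, the adaptor MAVS, and RSAD2 and CXCL10, which are expressed at low levels here and entered no test. OAS3 was the gene among them with the 8-base form, in addition to a 7-base site, and EIF2AK2 held a pair of 7-base sites. The 8-base site of OAS3 lies at chr12:112970554-112970561 on the plus strand and the OASL site at chr12:121019538-121019544 on the minus strand. Both are shown in capitals, with 11 bases of the transcript on either side.
OAS3: gtctgccatggATGCAGTAgaggaaagtgg
OASL: gattgaggatgATGCAGTgtaaaaaaaaa

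At baseline, with mimic NC, the 37 genes ranged from BST2, among the most abundant transcripts of the table, to IFNB1, which had no reads. In bulk libraries a low level can stand for few expressing cells or for little RNA in each cell, which cannot be told apart. The mean of the mimic NC libraries was at least 10 RPKM for 7 genes, between 1 and 10 RPKM for 17 genes, and under 1 RPKM for 13 genes. The median of these means was 3.73 RPKM, compared with 0.473 RPKM for all genes in the table and 5.06 RPKM for the genes that entered the test. In the plot of levels by library, the antiviral membrane protein gene BST2 stands apart at the top, and the interferon gene and the chemokine gene CXCL10 lie at the limit of detection.

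**Figure D1:**
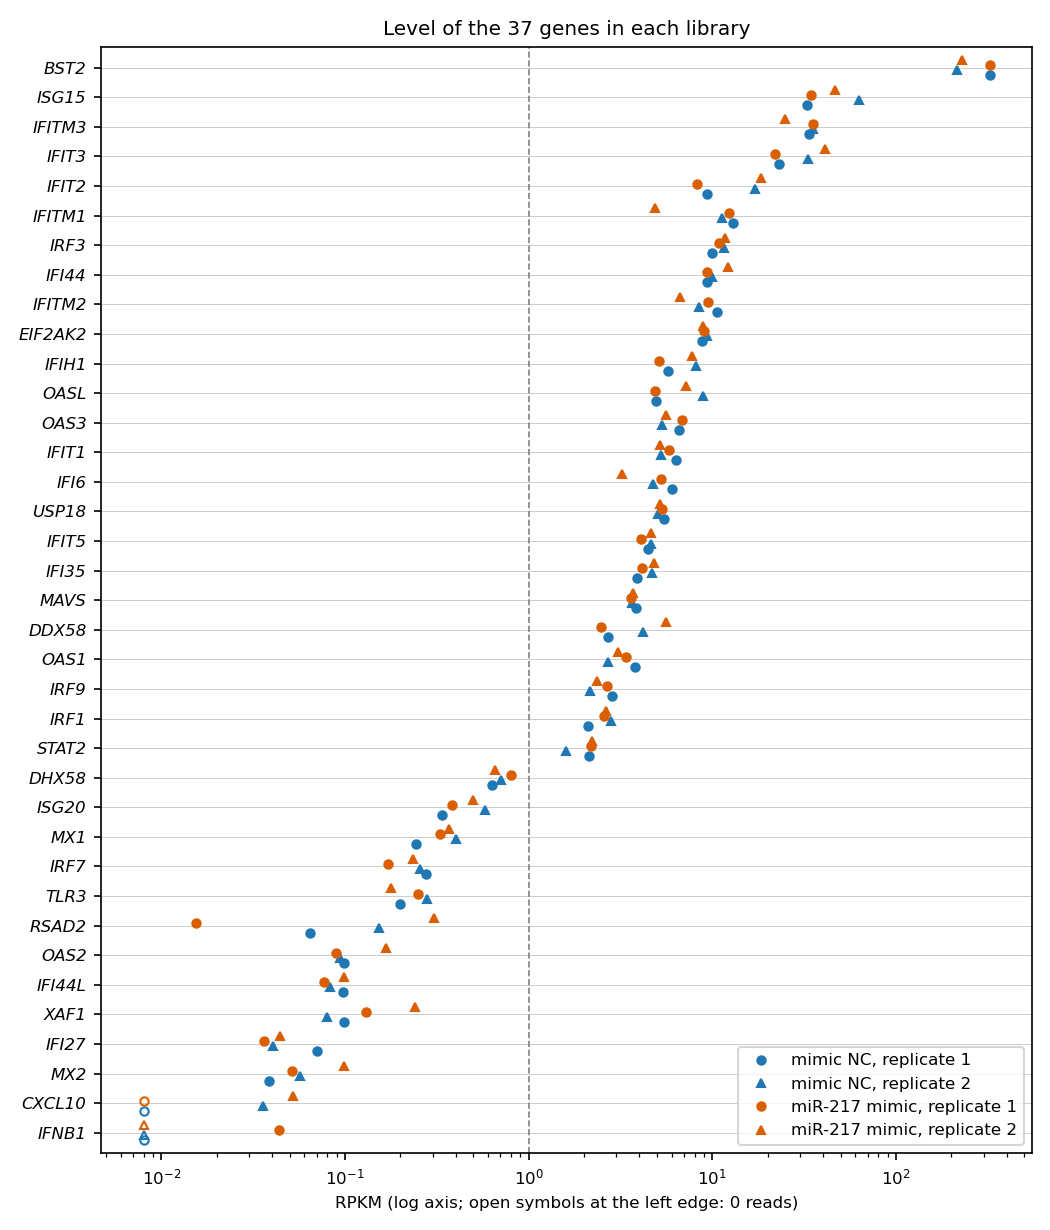
RPKM of the 37 genes (log axis) in each of the 4 libraries, ordered by the mean of the mimic NC libraries. Blue is mimic NC and orange is miR-217 mimic, circles are replicate 1 and triangles replicate 2, open symbols mark 0 reads, and the dashed line is the limit of 1 RPKM that the mean of the 4 libraries had to reach to enter the test. Colours overlap in most rows, while triangles and circles are apart for IFIT2, IFIT3, DDX58, ISG15, OASL and BST2.

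Of the sensors, EIF2AK2 (chr2:37099210-37157065), which encodes the kinase PKR that stops translation when it binds double-stranded RNA, had 8.77 and 9.40 RPKM with mimic NC and 8.99 and 8.87 RPKM with miR-217 mimic. The 4 libraries were close to each other and the treatments overlapped. IFIH1 (chr2:162267079-162318703), which encodes the sensor of long double-stranded RNA, had 5.77 and 8.13 RPKM with mimic NC and 5.12 and 7.71 RPKM with miR-217 mimic. DDX58 (chr9:32455705-32526324), which encodes the sensor of short RNA ends with a triphosphate, had 2.69 and 4.18 RPKM with mimic NC and 2.46 and 5.61 RPKM with miR-217 mimic. Both helicase genes were higher in the libraries numbered 2, whichever oligonucleotide the cells had received. DHX58, which encodes LGP2, a relative of both that lacks the signalling domain, was at 0.629 to 0.805 RPKM. TLR3, the endosomal sensor, had 39 to 90 reads per library, or 0.178 to 0.279 RPKM. The adaptor MAVS varied little, from 3.60 to 3.83 RPKM.

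The signalling factors were present at modest levels. IRF3, the factor activated behind MAVS and TLR3, had 9.90 and 11.6 RPKM with mimic NC and 10.9 and 11.8 RPKM with miR-217 mimic. IRF7, which amplifies the response once interferon has acted, had 20 to 42 reads per library, or 0.171 to 0.276 RPKM. IRF1, which drives several antiviral genes, was at 2.10 and 2.80 RPKM with mimic NC and at 2.58 and 2.64 RPKM with miR-217 mimic. Of the factor complex that carries the interferon signal to DNA, IRF9 was at 2.15 to 2.84 RPKM. STAT2 had 2.14 and 1.60 RPKM with mimic NC and 2.19 and 2.22 RPKM with miR-217 mimic, and here mimic NC replicate 2 was the low library. In the table, 48.4% of the exon bases of IRF9 also belong to another gene on the same strand and 19.3% of those of IRF3 to BCL2L12 on the opposite strand, so that reads there could be assigned to either gene, depending on counting settings that are not given in the sources used here.

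Secreted products were at or near 0. IFNB1 (chr9:21077105-21077963), which encodes interferon beta, had 0 reads in both mimic NC libraries, 2 reads in miR-217 mimic replicate 1 and 0 reads in miR-217 mimic replicate 2. A count of 0 allows up to 3 reads, which correspond to 0.0603 and 0.0737 RPKM in mimic NC replicates 1 and 2 and to 0.107 RPKM in miR-217 mimic replicate 2. CXCL10, a chemokine gene strongly induced by interferon, had 0 reads in both libraries numbered 1 and 2 reads in both numbered 2. A difference in either gene between the treatments was not detectable at this depth.

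The interferon-stimulated genes fell into a part that was well expressed and a part that was barely detected. BST2 (chr19:17402939-17405648), which encodes tetherin, a membrane protein that holds budding viruses on the cell, had 324 and 216 RPKM with mimic NC and 324 and 229.7 RPKM with miR-217 mimic, and ranked 161 among all genes. ISG15 (chr1:1001138-1014541), which encodes a small protein that is attached to other proteins like ubiquitin, had 32.7 and 62.7 RPKM with mimic NC and 34.7 and 46.5 RPKM with miR-217 mimic. IFITM3, which encodes a membrane protein that blocks the entry of viruses, had 33.5 and 35.4 RPKM with mimic NC and 35.2 and 24.8 RPKM with miR-217 mimic. These were the 3 highest members by the mean of the mimic NC libraries. By contrast, the GTPase genes MX1 and MX2, classic markers of an interferon response, had 104 to 165 reads (0.244 to 0.404 RPKM) and 29 to 42 reads (0.0384 to 0.0986 RPKM). IFI44L had 33 to 58 reads per library, IFI27 had 6 to 17 reads and OAS2, which encodes an enzyme that makes short chains of adenylate when it binds double-stranded RNA, had 28 to 36 reads. The remaining low members were ISG20, an exonuclease gene, at 0.338 to 0.579 RPKM, and XAF1, an apoptosis-related gene that shares 38.3% of its exon bases with a gene on the opposite strand, with 25 to 52 reads. RSAD2, which encodes the antiviral enzyme viperin, had 18 reads in mimic NC replicate 1 against 35 in replicate 2, and 4 reads in miR-217 mimic replicate 1 against 48 in replicate 2. All 13 genes with a mean under 1 RPKM over the 4 libraries, with 0 to 202 reads per library, entered no test.

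Neighbouring genes of a family differed in level. The 4 IFIT genes, which encode RNA-binding proteins that block foreign transcripts, lie side by side on chromosome 10 between 89283694 and 89421001. IFIT3 had 23.2 and 33.4 RPKM with mimic NC and 21.9 and 40.8 RPKM with miR-217 mimic. IFIT2 had 9.39 and 17.2 RPKM with mimic NC and 8.30 and 18.4 RPKM with miR-217 mimic. IFIT2 and IFIT3 were thus high in the libraries numbered 2. IFIT1, at 5.21 to 6.31 RPKM, was high in those numbered 1, and IFIT5 was at 4.11 to 4.66 RPKM. Of the OAS genes on chromosome 12, OAS3 was at 5.35 to 6.84 RPKM, OAS1 at 2.71 to 3.81 RPKM and OAS2 at 0.0898 to 0.166 RPKM, whereas OASL, which lies farther along the chromosome and encodes a relative without the enzymatic activity, was at 4.89 to 8.88 RPKM. The neighbours IFI44 and IFI44L on chromosome 1 were at 9.32 to 12.2 RPKM and at 0.0769 to 0.0987 RPKM. USP18, which encodes the protease that removes ISG15 from proteins and restrains the interferon receptor, was at 5.04 to 5.46 RPKM. IFI35 was at 3.91 to 4.81 RPKM, and IFI6, which encodes a small mitochondrial protein, at 3.22 to 6.03 RPKM.

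Next, miR-217 mimic was compared with mimic NC. No member passed the test, and the direction of most members depended on the replicate number. The 24 members with a mean of at least 1 RPKM, or 64.9% of the 37, were tested among 13871 genes, or 42.1% of the table, with limma on log2(RPKM + 1), a scale that understates the change of low genes. At an unadjusted p under 0.05, 0 of 24 members differed, compared with 1.19% of all genes tested. With Benjamini-Hochberg adjustment over all genes there were 0 members, against a background of 0%. With the replicate number added to the fit, IFI6 and IFITM2 had an unadjusted p under 0.05 in limma, as did 7.54% of all genes. That made 2 of 24 members, near the background, and 0 passed with adjustment. The median log2 fold change was -0.0088 over the members and -0.017 over all genes tested. Both miR-217 mimic libraries lay above both mimic NC libraries for 1 of the 24 tested members, STAT2, compared with 9.72% of all genes tested. They lay below them for 0 tested members, compared with 13.5%. Of the members too low for the test, XAF1 had 0.0992 and 0.0798 RPKM with mimic NC and 0.130 and 0.241 RPKM with miR-217 mimic. IRF7 went the other way, at 0.276 and 0.257 RPKM with mimic NC and 0.171 and 0.233 RPKM with miR-217 mimic. Both genes had few reads, 20 to 52 per library. The log2 fold change of STAT2, the highest among the members, was 0.17 with an unadjusted p of 0.300 in limma, and its libraries at 2.14 and 2.19 RPKM nearly touched. The lowest was that of IFITM1, at -0.56, with a 95% interval from -1.61 to 0.495 and an unadjusted p of 0.227 in limma. Without miR-217 mimic replicate 1, which leaves replicate 2 alone to stand for the mimic, IFITM1 and IFI6 had an unadjusted p under 0.05, as did 6.24% of all genes, so that 2 of 24 members was near the background. Across members the 95% intervals of the fit without the replicate number extended to a median of 0.432 on either side, or 1.35-fold. In that fit, changes smaller than a gene's own interval could not be resolved. For DDX58 the interval ran from -0.81 to 1.07 and for ISG15 from -1.07 to 0.74. It was narrower for MAVS, from -0.32 to 0.26, and for EIF2AK2, from -0.32 to 0.28. With 2 libraries in each group, the smallest p an exact permutation can reach is 0.333.

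**Figure D2:**
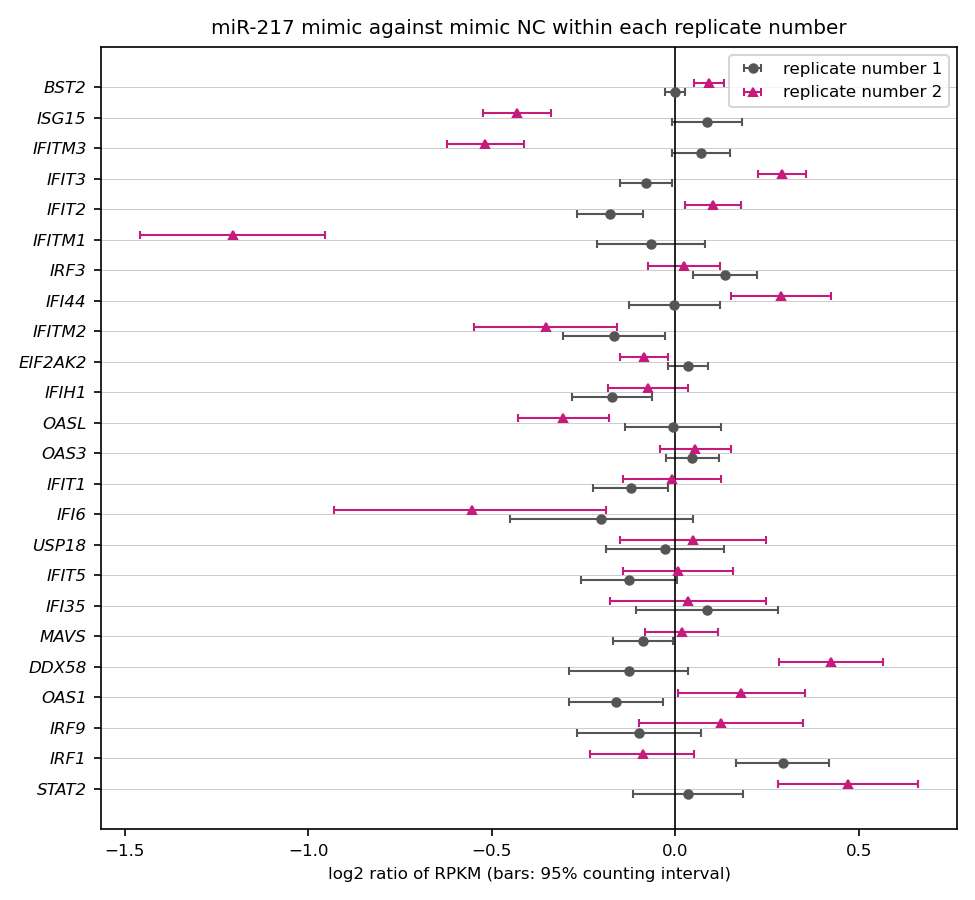
Log2 ratio of RPKM, miR-217 mimic over mimic NC, for the 24 tested members, within replicate number 1 (grey circles) and within number 2 (pink triangles). Bars are 95% intervals of the ratio from read counts alone, which do not hold the spread between cultures. The ratios of number 1 stay near 0, those of number 2 spread to both sides, and IFITM1 in number 2 lies farthest from 0.

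Within replicate number 1 the median difference of the members was -0.043 on the log2(RPKM + 1) scale, and within number 2 it was 0.018. In all, 4 members were higher with miR-217 mimic in both numbers (OAS3, STAT2, IRF3 and IFI35), 6 were lower in both (IFIH1, IFIT1, OASL, IFI6, IFITM1 and IFITM2), and 14 went opposite ways, BST2 among them with a ratio of 1.00 in number 1. IFIT3 was 0.947 times its mimic NC level in number 1 and 1.22 times in number 2. ISG15 went the other way, at 1.06 and 0.742 times. In DDX58 the ratios were 0.916 and 1.34. These ratios have counting intervals that exclude 1 for 9 members in number 1, compared with 37.4% of all genes, and for 14 in number 2, compared with 52.2%, so that many genes differed beyond counting error and the members were near that background. The direction of such ratios still reversed between the numbers for IFIT2, IFIT3 and OAS1, while IFITM2, the other member whose interval excluded 1 in both numbers, was lower in both. Counting intervals hold only the error of sampling reads, and with 1 library of each treatment in a number the differences between cultures are not in them.

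The 3 IFITM genes lie together on chromosome 11, and IFITM1 gave the lowest log2 fold change among the members. IFITM1 (chr11:313506-315272) was at 13.0 and 11.2 RPKM with mimic NC (811 and 575 reads) and at 12.4 and 4.88 RPKM with miR-217 mimic (713 and 172 reads). In number 1 the ratio to mimic NC was 0.955 (95% counting interval 0.862 to 1.06), whereas in number 2 the ratio was 0.434 (0.364 to 0.516). IFITM3 had a ratio of 1.05 (0.993 to 1.11) in number 1 and 0.699 (0.650 to 0.752) in number 2. IFITM2 was at 10.6 and 8.50 RPKM with mimic NC and at 9.49 and 6.65 RPKM with miR-217 mimic, with ratios of 0.891 (0.809 to 0.980) and 0.783 (0.684 to 0.896). All 3 genes were thus lowest in miR-217 mimic replicate 2, as was IFI6 (ratio 0.681 in number 2), and that library is the smallest and the one with the highest LYZ, PTPRC and CD3E. Reads of these genes are uncertain, since 32.5% of the exon bases of IFITM1 are also listed as exon of IFITM2 on the same strand, 21.3% of those of IFITM3 lie opposite a gene on the other strand, and the coding sequences of IFITM2 and IFITM3 were 93.2% identical.

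Of the members with a seed site, 5 entered the test, and none had an unadjusted p under 0.05 in limma. The log2 fold change was 0.04 for OAS3, with its 8-base site, and -0.14 for OASL, -0.06 for IFIT1, -0.03 for MAVS and -0.02 for EIF2AK2, compared with -0.0088 for the median of the tested members. OAS3 had ratios of 1.03 and 1.04 in numbers 1 and 2, with counting intervals of 0.982 to 1.09 and 0.972 to 1.11. OASL was at 0.996 (0.909 to 1.09) and 0.810 (0.743 to 0.882), and EIF2AK2 at 1.02 (0.987 to 1.06) and 0.943 (0.901 to 0.987). IFIT1 was at 0.920 (0.856 to 0.987) and 0.994 (0.907 to 1.09), and MAVS at 0.941 (0.889 to 0.996) and 1.01 (0.945 to 1.08). Each of these 4 genes thus had an interval below 1 in a single number, where intervals excluding 1 in either direction were found for 37.4% (number 1) and 52.2% (number 2) of all genes. Whether genes with a site differ from genes without was not tested. A site is a match of letters and does not show that the microRNA bound there.

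Of a list of 89 other genes of the pathway, receptors, kinases, sensors, antiviral factors and cytokines, 82 were in the table. Of these, 61 passed the limit on level. In limma 0 of 61 had an unadjusted p under 0.05, compared with 1.19% of all genes. With the replicate number in the fit 1 of 61 did, SAMD9, compared with 7.54% of all genes. Both miR-217 mimic libraries lay above both mimic NC libraries for 4 of the 61 and below for 8, compared with 9.72% and 13.5% of all genes. Their median log2 fold change was -0.0074. The highest were HERC5, which encodes the ligase that attaches ISG15, at 0.17 and the cytidine deaminase gene APOBEC3B at 0.14, and the lowest were the antiviral factor gene SAMD9 and PRKRA, which encodes an activator of PKR, both at -0.27.

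The promoters of the 37 genes were searched for a motif that interferon-induced genes share, as a description of their sequence. The interferon-stimulated response element, bound by the STAT and IRF factors, contains the letters GAAANNGAAA. These letters were looked for on both strands, overlaps included, in the window from 250 bases before to 50 bases after each gene start in RefSeq (GRCh38.p14), where 28 of the 37 genes had an entry. They were present in 19 of the 28, or 67.9%, compared with 4.38% of 27305 genes with an entry. Many of the 37 genes were chosen because interferon is known to induce them. A higher share follows from that choice and shows nothing about these libraries. IFIT2 and OASL, which were higher in the libraries numbered 2, had no entry. Matches near the starts of members that differed between replicate numbers are shown 5′ to 3′ on the gene's strand, with the letters in capitals. The IFIH1 match lies at chr2:162318686-162318715 (minus strand), that of ISG15 at chr1:1013380-1013409 (plus), that of IFIT3 at chr10:89332468-89332497 (plus, read on the opposite strand) and that of BST2 at chr19:17405741-17405770 (minus).
IFIH1: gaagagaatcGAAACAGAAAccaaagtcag
ISG15: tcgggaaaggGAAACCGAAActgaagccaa
IFIT3: gttccatcagTTTCACTTTCctttcccctt
BST2: tcctttctggGAAACTGAAActgaaaacct
Counted from the start, with bases before it negative, the letters began at -21 in IFIH1, at -107 in ISG15 and at -130 in BST2. In IFIT3 they began at -51 from the second of 2 starts in RefSeq, which lies inside the gene as the table lists it (chr10:89327894-89340971). DDX58 had an entry without these letters in the window. Members that were higher and members that were lower in the libraries numbered 2 both held them, and a match describes the sequence and not a bound site.

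Finally, the libraries numbered 2 were compared with those numbered 1, as a description of how the members varied between libraries of the same treatments. IFIT2, IFIT3, OASL and IFIH1 were higher in number 2 and BST2 was lower, in both treatments. With limma and Benjamini-Hochberg adjustment over all 13871 genes, 4 members were higher, against a background of 3.34%, and 1 was lower, against 3.71%. At an unadjusted p under 0.05 there were 6 higher members, with DDX58 and ISG15 added, compared with 12.8% of all genes, and 4 lower members, with OAS1, OAS3 and IFITM2 added, compared with 17.4%. The median log2 fold change was 0.011 over the members and -0.035 over all genes, and the median size of the change in either direction was 0.234 and 0.166. Of the 24 members, 11 were higher in number 2 in both treatments, 9 were lower in both and 4 went opposite ways. The 5 adjusted calls rest on few libraries. There were 0 without mimic NC replicate 1 and 0 without miR-217 mimic replicate 1, where 0.0649% and 0.0937% of all genes were called. There were 12 without mimic NC replicate 2, where 28.3% of all genes were called, and 7 without miR-217 mimic replicate 2, where 12.7% were. An unadjusted p under 0.05 was kept by 7 members, DDX58, IFIH1, IFIT2, IFIT3, ISG15, OASL and BST2, with all libraries and whichever library was left out, compared with 9.76% of all genes. Testing every gene of the table gave 0 calls among the members and 3 genes in all, and limma voom on the recovered reads gave 8 members and 16.3% of all genes.

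**Figure D3:**
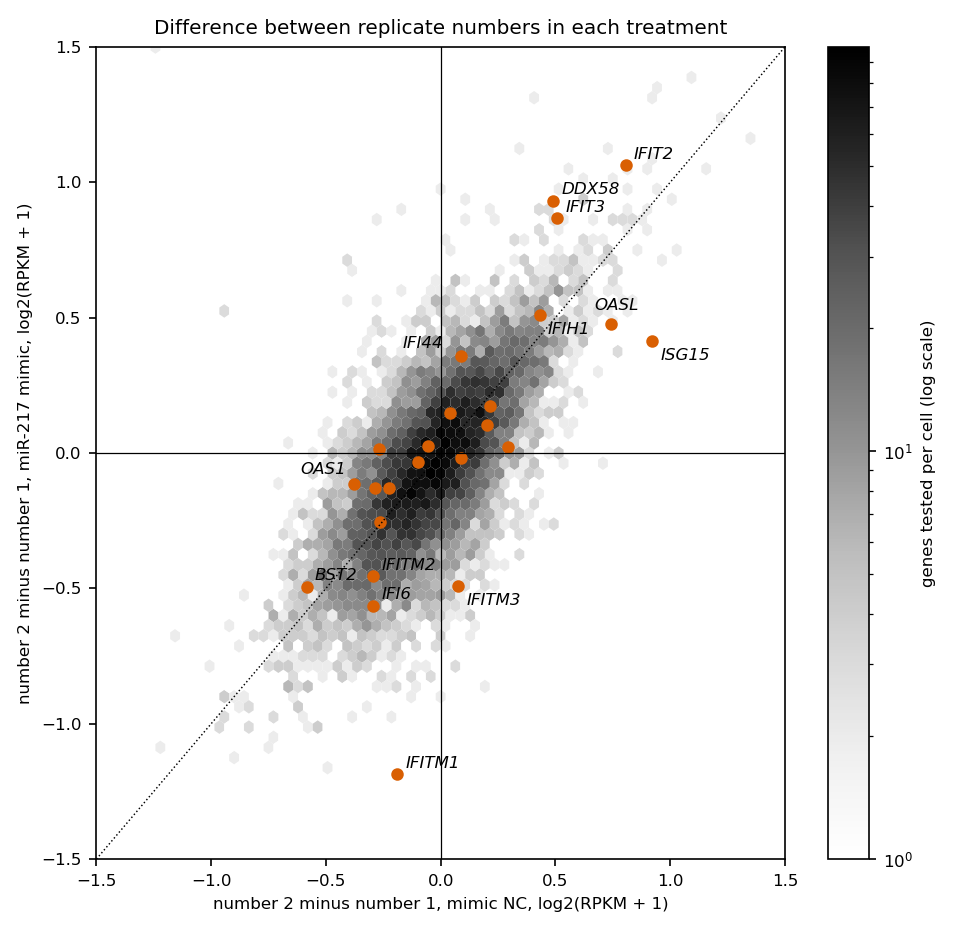
Difference between the libraries numbered 2 and 1 on the log2(RPKM + 1) scale, in mimic NC (horizontal) and in miR-217 mimic (vertical). Grey cells count the genes tested that lie within the axes, orange points are the 24 members, and the dotted line marks equal differences. IFIT2 lies at 0.81 and 1.06, OASL at 0.74 and 0.48 and BST2 at -0.58 and -0.49, while IFITM1 lies off the line at -0.19 and -1.19.

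Among the tested members IFIT2 had the largest difference, 0.93 on the log2 scale (standard error 0.089), with an adjusted p of 0.0175 from limma with Benjamini-Hochberg adjustment, and its mean RPKM was 101% higher in number 2. The ratio of number 2 to number 1 was 1.83 with mimic NC (95% counting interval 1.73 to 1.93) and 2.22 with miR-217 mimic (2.09 to 2.36). For its neighbour IFIT3 the difference was 0.69 (standard error 0.114), with an adjusted p of 0.0408 in limma and ratios of 1.44 and 1.86. IFIT1 next to them had ratios of 0.831 and 0.899, in the opposite direction, and IFIT5 had ratios of 1.03 and 1.14. The neighbours thus did not share a direction.

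Among the sensors, IFIH1 was higher by 0.47 on the log2 scale (standard error 0.086), with an adjusted p of 0.0459 in limma, and its mean RPKM was 45.5% higher in number 2. DDX58 was 90.1% higher, with a log2 fold change of 0.71 (standard error 0.137), but did not pass the adjusted threshold (adjusted p = 0.0505 in limma), and its ratios were 1.55 with mimic NC and 2.28 with miR-217 mimic. MAVS and EIF2AK2 stayed between 0.952 and 1.07 times in both treatments. OASL, which encodes a protein that aids RIG-I signalling, was 64.0% higher, or by 0.61 on the log2 scale (standard error 0.111), with an adjusted p of 0.0455 in limma. ISG15 was 62.3% higher, with an adjusted p of 0.0652 in limma and ratios of 1.92 and 1.34. RSAD2, too low for the test, had ratios of 2.38 (1.31 to 4.46) with mimic NC and 19.6 (7.18 to 74.9) with miR-217 mimic.

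Other interferon-stimulated genes went down or did not follow. The log2 fold change of BST2 was -0.54 (standard error 0.078) at an adjusted p of 0.0337 in limma, and its mean RPKM was lower in number 2 in both treatments, with ratios of 0.666 and 0.710. OAS3 had ratios of 0.809 and 0.814, nearly equal in both treatments, with an adjusted p of 0.0934 in limma. The ratios of OAS1 were 0.711 and 0.900, and those of IFITM2 were 0.798 and 0.701. USP18, IRF9 and IFI6 had ratios under 1 in both treatments, none of them with an unadjusted p under 0.05 in limma. STAT2 had a ratio of 0.751 with mimic NC and of 1.02 with miR-217 mimic.

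**Figure D4:**
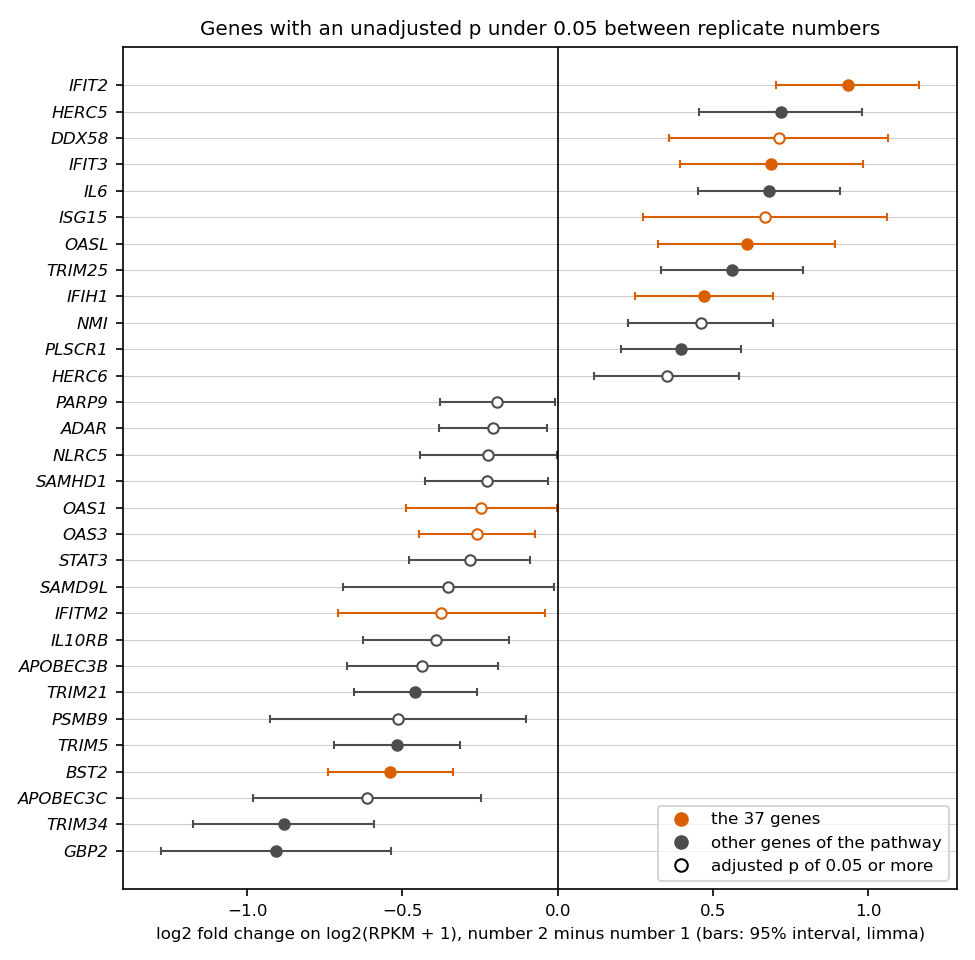
Log2 fold change on log2(RPKM + 1), number 2 minus number 1, with 95% intervals from limma, for members (orange) and other genes of the pathway (grey) with an unadjusted p under 0.05. Filled points have an adjusted p under 0.05, and some genes of the list are not drawn. The members IFIT2, DDX58, IFIT3, ISG15, OASL and IFIH1 lie to the right with HERC5, IL6 and TRIM25, and BST2 lies to the left with GBP2, TRIM34 and TRIM5.

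In the list of other pathway genes, 4 of 61 were higher and 4 were lower in number 2 at an adjusted p under 0.05 in limma, compared with 3.34% and 3.71% of all genes. Without mimic NC replicate 1 or without miR-217 mimic replicate 1 there were 0 such genes, in fits that called 0.0649% and 0.0937% of all genes. Without mimic NC replicate 2 there were 18, and without miR-217 mimic replicate 2 there were 14, in fits that called 28.3% and 12.7% of all genes. TRIM25, which encodes a ubiquitin ligase that activates RIG-I, had 8.77 and 9.88 RPKM in the libraries numbered 1 and 14.8 and 13.7 RPKM in those numbered 2, with mimic NC given first. HERC5 was at 7.74 and 8.84 RPKM in number 1 and at 13.4 and 15.2 RPKM in number 2. PLSCR1 and the cytokine gene IL6 were also higher, with log2 fold changes of 0.40 and 0.68. The 4 lower genes were the GTPase gene GBP2 at -0.91 and the antiviral TRIM genes TRIM34, TRIM5 and TRIM21 at -0.88, -0.52 and -0.46. At an unadjusted p under 0.05, HERC6 and NMI were among the genes added to the higher ones. Among those added to the lower genes were the receptor gene IL10RB, the RNA editing enzyme gene ADAR, SAMHD1, APOBEC3B, APOBEC3C, PARP9, SAMD9L, PSMB9, NLRC5 and STAT3. The members of the list thus included genes in both directions, as the 37 genes did.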

How the data were processed

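RNA-seq of 4 libraries, 2 with mimic NC and 2 with miR-217 mimic, was used. The sample labels gave the groups, as control and miR-217 mimics, and the replicate numbers. That the control was mimic NC is taken from the text of the study. The authors deposited RPKM values for 32955 genes with exon coordinates on hg38. The authors' processing notes name Trimmomatic 0.36, featureCounts, Subread 1.5.1 and edgeR 3.12.1, with no role or order. The aligner, annotation and strand setting are not given in the sources used here. RPKM scaled back by gene length and by the depth of the library gave whole reads for 100% of values (tolerance 0.01 read). No pair of libraries agreed within sampling noise.

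Values were tested as log2(RPKM + 1) where the mean RPKM was at least 1 (13871 genes), with limma 3.58.1 (lmFit, eBayes with trend, R 4.3.3), two-sided, with Benjamini-Hochberg adjustment over these genes. Calls are at 0.05. Counting intervals on ratios are exact conditional binomial 95% intervals, and floors are 3 reads. Intervals and floors cover counting error alone, since reads are not independent molecules. Sites were sought in GENCODE 29 and RefSeq promoters, and plots were drawn with matplotlib 3.10.9. The fits were tested on simulated data that held no general difference between replicate numbers. That check therefore does not show how well the fits detect changes in these libraries. The members, the pathway list and the marker lists were chosen with earlier results of these data known. All 37 members are named. Of the pathway list, genes with an unadjusted p under 0.05 in either comparison and the 2 highest and 2 lowest changes are named, and some genes of these lists are not reported here. Alternatives were to test every gene, to raise the limit to 5 RPKM, to lower the pseudocount to 0.1, to centre libraries on their median, to add a replicate block, to run voom on the recovered reads, and to leave out each library in turn.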

Additional observations from a re-analysis of the deposited data

How the results depend on the processing

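With the replicate number in the fit (the replicate block) 2 members had an unadjusted p under 0.05 with miR-217 mimic in limma, IFI6 at a log2 fold change of -0.31 and IFITM2 at -0.23, as did SAMD9, 1 gene of the pathway list, and 7.54% of all genes, so that 2 of 24 was near the background. With voom and the block 0 members had such a p, against 9.09% of all genes, and with the block 0 members passed the adjusted threshold. The numbers are not stated to pair the libraries, and with 2 pairs the correlation across genes of the deviations of same-numbered libraries from their group means (0.680) is a hint from the data. Testing every gene gave 1 such pathway gene, SOCS1, against 2.66% of all genes, and voom on the recovered reads with the block gave 3 (HERC5, SAMD9 and SAMD9L). In the comparison of numbers, adjusted calls came to 0 members and 0 pathway genes when every gene was tested, to 8 and 16 with voom (16.3% of all genes), and to 9 and 20 with voom and the treatment as a block (23.6%). Directions turned for EIF2AK2 with median centring (0.0042) and, with voom and the block, for OAS1 (-0.021) and IRF9 (-0.0083). The other 154 member values of the mimic comparison under these settings kept direction and side of the threshold.

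Leaving out each library in turn gave 0 to 2 members and 0 to 2 pathway genes at an unadjusted p in the mimic comparison, the 2 and 2 without miR-217 mimic replicate 1, with a member median of -0.067 to 0.0094. In the comparison of numbers it gave 0 to 12 members and 0 to 18 pathway genes at an adjusted p, 0 of each without either library numbered 1 and 12 and 18 without mimic NC replicate 2, with a member median of -0.0028 to 0.059. The log2 fold change with miR-217 mimic ran from -0.34 to 0.60 for DDX58, -0.36 to 0.15 for IFIH1, -0.055 to 0.000071 for MAVS, -0.067 to 0.023 for EIF2AK2, -0.17 to 0.058 for IFIT1, -0.56 to 0.50 for IFIT2, -0.33 to 0.54 for IFIT3, -0.12 to 0.026 for IFIT5, -0.63 to 0.29 for ISG15, -0.18 to 0.19 for OAS1, -0.088 to 0.17 for OAS3 and -0.51 to 0.23 for OASL. It ran from -0.077 to 0.22 for IRF1, -0.029 to 0.17 for IRF3, -0.14 to 0.15 for IRF9, -0.058 to 0.16 for IFI35, -0.047 to 0.31 for IFI44, -1.15 to 0.033 for IFITM1, -0.46 to 0.029 for IFITM3, -0.25 to 0.34 for BST2 and -0.040 to 0.057 for USP18. The sign was the same without each library for STAT2 (0.031 to 0.30), IFI6 (-0.59 to -0.024) and IFITM2 (-0.46 to -0.0043), though their values came close to 0. The cause of these changes was not tested. With a single library left in a group, that library was assumed to vary like the other group. Depth limits most the members with few reads, such as IFNB1, CXCL10 and IFI27.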
